A study of Mus musculus with 9 samples.

Results

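This is an account of 9 genes that mark the renal tubule, among 54532 genes measured in RENCA, a carcinoma line from mouse kidney. They were taken by name: the transcription factor genes Pax2, Pax8 and Lhx1, the cadherin gene Cdh16, the water channel genes Aqp1 and Aqp2, the peptidase gene Anpep, and the endocytic receptor genes Lrp2 and Cubn. All 9 were found in the table. The low-count filter passed 8 of them; Cubn did not pass.

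The line was sequenced in 3 forms, with 3 libraries each. Empty-vector cells are labelled wild type. Knockout cells, labelled NDUFA4L2 -/-, were grown from single-cell colonies after editing with 1 CRISPR guide against Ndufa4l2, which encodes a mitochondrial protein. Rescue cells, labelled NDUFA4L2 +/+, are the knockout line after infection with an Ndufa4l2 lentivirus carrying puromycin resistance, and were selected with that drug. For knockout, the series' design text counts fewer replicates than the 3 that are labelled and tabulated; all 3 were used. The labels do not say whether the empty-vector cells were cloned or selected, how many knockout clones were used, or whether replicates were separate cultures. Between knockout and empty vector, the gene and the choice of clone cannot be told apart, nor can the gene, the virus and the selection between rescue and knockout. The p-values reflect the spread of libraries within a group, which may be technical.

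Library totals were 13106531 to 26643877 counts. Ndufa4l2 itself had 6 to 16 counts in empty-vector libraries, 6 to 8 in knockout and 35 to 73 in rescue. These counts separate the rescue group from the others, and they do not separate knockout from empty vector. Genes of the mitochondrial genome took 5.79% to 7.93% of the counts in knockout, 2.16% to 3.17% in empty vector and 2.23% to 2.65% in rescue; the part of this difference in the results was not tested.

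The nephron develops from precursors that express Pax2, Pax8 and Lhx1, and the adult tubule is then divided into segments with their own transport proteins. The proximal tubule takes up filtered proteins through megalin (encoded by Lrp2) and cubilin (Cubn), moves water through Aqp1 and carries aminopeptidase N (Anpep) on its brush border. Aqp2 is the vasopressin-regulated water channel of collecting duct principal cells, and Cdh16 encodes a kidney-specific cadherin. PAX2 and PAX8 are used in pathology as markers of renal cell carcinoma.

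The members spanned a wide range of levels. FPKM, a deposited level scaled to gene length and sequencing depth, allows genes to be compared with each other. Cdh16 was the most abundant member in every group, at 83.2 ± 19.1 FPKM for empty vector, 186 ± 14.0 for knockout and 128 ± 13 for rescue (SD, n = 3). Pax8 came next, at 38.6 ± 0.298, 16.3 ± 1.16 and 27.1 ± 2.23 FPKM, and Pax2 followed, at 9.17 ± 0.434, 10.4 ± 0.182 and 10.2 ± 0.132 FPKM. The ranks of these 3 genes did not overlap between libraries in any group.

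The lower ranks changed places between groups. Lrp2 came after Pax2 in empty vector (1.08 ± 0.207 FPKM) and in rescue (1.25 ± 0.115), where its libraries overlapped those of Aqp2 (1.05 ± 0.205). In knockout Aqp2 stood above it, at 4.71 ± 0.687 against 1.86 ± 0.287 FPKM, without overlap. Anpep was last in empty vector and in rescue and sixth in knockout, at 0.509 ± 0.124 FPKM. Lhx1 was last in knockout, where its libraries overlapped those of Cubn. In empty vector Lhx1 overlapped both Aqp2 above it and Aqp1 below it, in rescue it overlapped Aqp1, and the Cubn and Anpep libraries overlapped in both groups.

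**Figure D1:**
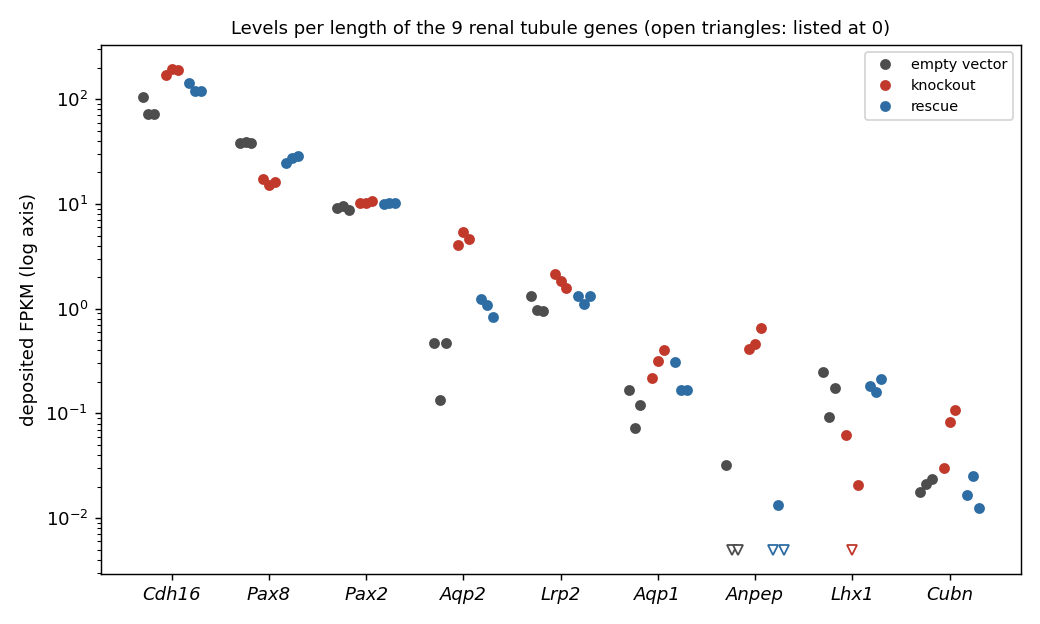
Deposited FPKM (log axis) of the 9 genes in each of the 9 libraries, ordered by mean level; each point is a library, and open triangles at the bottom mark libraries listed at 0. Cdh16, Pax8 and Pax2 lie above all other members. Anpep is listed at 0 in 2 empty-vector and 2 rescue libraries, and Lhx1 in 1 knockout library.

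Several members were close to the limit of measurement. The filter asked for at least 0.574 CPM (counts scaled to a common library size, here on library totals) in 3 libraries. Anpep reached this only in the 3 knockout libraries, so it passed through the group where it is high. Lhx1 reached it in 2 empty-vector and 3 rescue libraries and in no knockout library. Aqp1 reached it in 2 knockout libraries and 1 rescue library, with at most 25 counts in any library. Cubn reached it in 2 knockout libraries, had 97 counts over all 9 libraries and was not tested. Counts of called members are therefore a description of those that passed, not of the whole set.

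Knockout against empty vector compared the edited colonies with the reference cells. Of the 8 members tested, 6 were higher and 2 lower in knockout, against 29.5% and 31.1% of all genes tested. Anpep and Aqp2 rose most, Cdh16 and Aqp1 rose more than 2-fold, Lrp2 rose 1.69-fold, and Pax8 and Lhx1 fell. Over all genes tested, 60.6% were called in this comparison, so a call by itself says little about these genes. No overlap between the libraries of the groups was seen for all 8 tested members, against 63.7% of all genes tested. All changes below are log2 changes ± SE from edgeR's quasi-likelihood test, with adjusted p over all genes.

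Re-expression was examined next, in rescue against knockout. Of the 8 tested members, 4 fell (Anpep, Aqp2, Lrp2 and Cdh16) and 2 rose (Pax8 and Lhx1), against 27.3% and 29.5% of all genes tested and 56.8% called in either direction. The libraries of 6 tested members did not overlap there, against 65.3% of all genes. Rescue against empty vector called 4 of the 8, against 47.5% of all genes: Cdh16, Aqp2 and Pax2 were higher in rescue (22.4% of all genes were) and Pax8 was lower (25.1% were). The Pax2 call did not hold in most alternatives. The same 4 did not overlap between these groups, against 55.1% of all genes. Both comparisons with knockout use the same knockout libraries, so their opposite signs are not independent of each other.

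**Figure D2:**
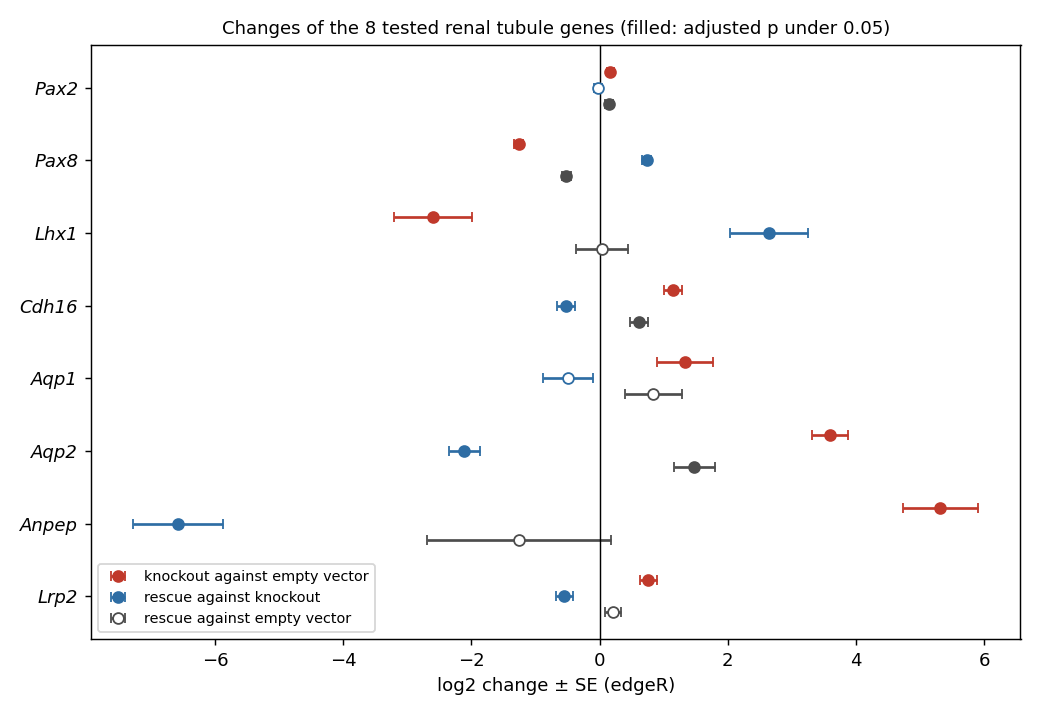
Log2 changes ± SE of the 8 tested genes in the 3 comparisons; filled points have an edgeR adjusted p under 0.05. Anpep spans the widest range, from -6.58 in rescue against knockout to 5.32 in knockout against empty vector, and Pax2 lies closest to 0.

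Pax8, a paired-box factor of the developing and adult tubule, was the transcription factor with the clearest change. It had 5229, 3739 and 5916 counts for empty-vector replicates 1 to 3, 1665, 1116 and 2324 for the knockout ones, and 4227, 3069 and 2815 for rescue. On the scale of CPM with TMM-scaled totals, used from here on, these were 232, 240 and 237 for empty vector, 106, 92.1 and 97.8 for knockout, and 150, 168 and 177 for rescue. The 3 groups formed 3 separate levels with rescue in the middle. Pax8 fell 2.4-fold in knockout (-1.26 ± 0.07, edgeR adjusted p = 1.6e-11), rose in rescue against knockout (0.74 ± 0.07, edgeR adjusted p = 2.5e-08) and remained below empty vector in rescue (-0.52 ± 0.07, edgeR adjusted p = 4.3e-06). The noncoding gene Gm13415 overlaps Pax8 on the other strand, with at most 25 counts in a library.

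Pax2, the related factor needed for kidney formation, hardly moved. Its libraries lay at 49.5, 53.0 and 48.0 CPM for empty vector, 55.6, 55.7 and 57.6 for knockout, and 55.0, 56.2 and 55.9 for rescue. All knockout and rescue libraries were above all empty-vector libraries, by a margin of a few CPM. The change was 0.17 ± 0.06 in knockout (edgeR adjusted p = 0.023) and 0.15 ± 0.06 in rescue (edgeR adjusted p = 0.048), both against empty vector, or 1.13-fold and 1.11-fold. The rescue call was lost in 9 of 16 alternatives, with an edgeR adjusted p of up to 0.20. Scaled by library totals alone, the knockout change was 0.01 (edgeR adjusted p = 0.86), and without empty-vector replicate 3 or knockout replicate 3 the adjusted p was 0.13 or 0.077. Rescue and knockout overlapped (-0.02 ± 0.06, edgeR adjusted p = 0.83).

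Lhx1, a LIM-homeodomain factor of the early nephron, was present at trace level. It had 23, 6 and 18 counts for empty vector, 4, 0 and 2 for knockout, and 21, 12 and 14 for rescue. Knockout libraries were the lowest of the 9, and empty-vector and rescue libraries overlapped. Summed over a group this was 0.745 CPM for empty vector (exact Poisson interval 0.548 to 0.991), 0.116 for knockout (0.0427 to 0.253) and 0.755 for rescue (0.555 to 1.00); such intervals cover counting error only. Lhx1 fell in knockout (-2.60 ± 0.61, edgeR adjusted p = 0.0011), rose in rescue against knockout (2.64 ± 0.61, edgeR adjusted p = 0.00099) and did not pass between rescue and empty vector (0.04 ± 0.40, edgeR adjusted p = 0.95). It passed the low-count filter only through empty-vector and rescue libraries, the groups where it is higher.

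Cdh16, the most abundant member, had its highest level in knockout. Its libraries stood at 399, 280 and 276 CPM for empty vector, 641, 743 and 724 for knockout, and 547, 458 and 461 for rescue. Again the 3 groups did not overlap and rescue lay in the middle, here with the order of Pax8 turned around. Within empty vector, replicate 1 lay well above the other 2 libraries. Cdh16 rose 2.21-fold in knockout (1.14 ± 0.14, edgeR adjusted p = 4.4e-05), fell in rescue against knockout (-0.52 ± 0.14, edgeR adjusted p = 0.0082) and was 1.53-fold higher in rescue than in empty vector (0.62 ± 0.14, edgeR adjusted p = 0.0044). The fall in rescue was -0.34 (edgeR adjusted p = 0.057) with library totals alone as the scale.

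**Figure D3:**
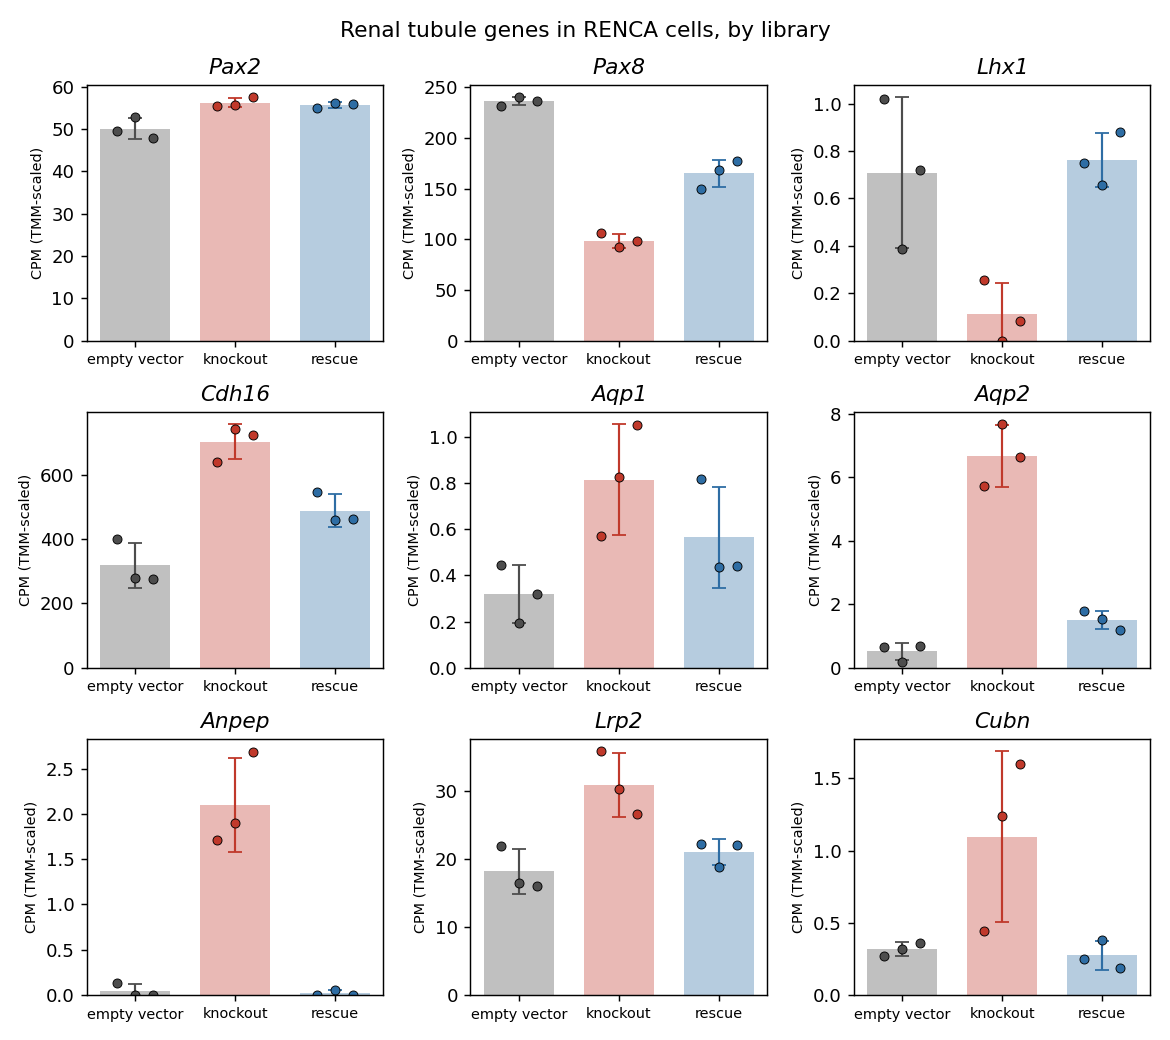
CPM (TMM-scaled) of the 9 genes by group; points are libraries, bars are group means and error bars are SD (n = 3). Pax8 and Lhx1 are lowest in knockout, while Cdh16, Aqp2, Anpep and Lrp2 are highest there.

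Aqp2 and Anpep had the largest rises. Cubn, too low to be tested, also had its highest mean in knockout. The 250 bases before the RefSeq start of these 3 genes are shown as examples of members that were higher in knockout. The windows are from GRCm38.p6 and are given 5′ to 3′ on the gene's strand. Lrp2, Aqp1, Cdh16 and, by a small margin, Pax2 were also called higher there and are not shown. Capitals mark matches to GGGCGG, the GC box, which was searched on both strands. The TATA box motif TATAAA and the HNF1 half-site GTTAAT were searched in the same way. No match overlapped another in these windows.
Aqp2, chr15:99578806-99579055, plus strand: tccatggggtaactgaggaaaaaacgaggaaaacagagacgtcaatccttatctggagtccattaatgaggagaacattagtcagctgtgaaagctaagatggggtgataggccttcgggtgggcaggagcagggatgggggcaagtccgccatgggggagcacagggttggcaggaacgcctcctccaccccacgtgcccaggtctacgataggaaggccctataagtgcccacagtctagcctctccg
Anpep, chr7:79848211-79848460, minus strand: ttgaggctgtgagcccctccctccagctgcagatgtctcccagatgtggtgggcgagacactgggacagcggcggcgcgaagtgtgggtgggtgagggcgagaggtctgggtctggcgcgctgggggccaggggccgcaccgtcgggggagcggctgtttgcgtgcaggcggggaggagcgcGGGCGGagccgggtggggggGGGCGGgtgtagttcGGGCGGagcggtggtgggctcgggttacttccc
Cubn, chr2:13491877-13492126, minus strand: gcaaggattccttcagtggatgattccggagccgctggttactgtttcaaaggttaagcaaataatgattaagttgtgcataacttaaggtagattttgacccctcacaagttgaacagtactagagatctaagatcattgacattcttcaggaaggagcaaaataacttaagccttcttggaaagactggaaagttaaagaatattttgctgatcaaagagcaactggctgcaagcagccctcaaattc
The 3 windows differed in composition. GC content was 55.6% for Aqp2, 72.8% for Anpep and 39.6% for Cubn, beside a median of 52.4% over 32851 promoters, and the windows held 8, 23 and 2 CpG dinucleotides. Anpep had 3 GC boxes, starting at -68, -48 and -33 relative to the start site, where 32.7% of all promoters had at least 1. TATAAA, in 12.4% of promoters, and GTTAAT, in 6.43%, did not occur in the 3 windows. Only exact matches were searched, so variants of these motifs were not covered. The RefSeq start of Anpep lies inside the gene as deposited (chromosome 7, 79821803 to 79861059, minus strand), so the deposited gene model reaches further upstream. The windows of Aqp1 and Lrp2, not printed, had a GC content of 62.0% and 66.4%. Aqp1 had a GC box at -190, and Lrp2 had GC boxes at -143 and -88. Cdh16 had no entry in the promoter table.

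Aqp2 was near the floor in the reference cells and readily counted in knockout. It had 15, 3 and 17 counts for empty vector, 90, 93 and 158 for knockout, and 50, 28 and 19 for rescue. In CPM these were 0.665, 0.193 and 0.681, then 5.71, 7.67 and 6.65, then 1.78, 1.53 and 1.19. The 3 groups did not overlap. Aqp2 rose 12.0-fold in knockout (3.59 ± 0.28, edgeR adjusted p = 1.8e-09), fell 4.32-fold in rescue against knockout (-2.11 ± 0.24, edgeR adjusted p = 3.1e-07) and was still 2.78-fold above empty vector in rescue (1.48 ± 0.32, edgeR adjusted p = 0.00094).

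Aqp2 (chromosome 15, 99579055 to 99584547, plus strand, mm10) lies beside 2 other aquaporin genes, Aqp5 (99590782 to 99594829) and Aqp6 (99601400 to 99605477). These neighbours were looked up after the values were seen. Aqp5, a water channel best known from glands and lung, stood at 2.13, 1.86 and 1.48 CPM for empty vector, 10.2, 10.7 and 12.1 for knockout, and 1.71, 1.2 and 1.32 for rescue. It rose in knockout (2.60 ± 0.18, edgeR adjusted p = 3.4e-10) and fell in rescue against knockout (-2.93 ± 0.19, edgeR adjusted p = 9.9e-11). Aqp6, an intracellular channel of intercalated cells, had 4 to 37 counts per library and moved the same way (1.00 ± 0.35, edgeR adjusted p = 0.017; then -1.52 ± 0.37, edgeR adjusted p = 0.0015). Unlike Aqp2, neither passed between rescue and empty vector, and whether they differ from Aqp2 there was not tested. Of the other protein-coding genes within 100 kb, Faim2 also rose in knockout (2.18 ± 0.40, edgeR adjusted p = 0.00011), while Racgap1 (0.05) and Asic1 (-0.03) did not pass. Faim2 was low, at 0.445 CPM in empty vector, under the filter's 0.574 CPM, and 2.01 ± 0.776 (SD) in knockout. It had at most 69 counts in any library. Of 9 other aquaporin genes listed, 3 were tested: Aqp5, Aqp6 and Aqp9. All 3 were higher in knockout and lower in rescue against knockout, against 29.5% and 27.3% of all genes tested. Aqp9, which is not among these neighbours, was at 98.3, 202 and 80.2 CPM in empty vector, knockout and rescue. It rose by 1.03 ± 0.19 in knockout (edgeR adjusted p = 0.0023) and changed by -1.33 ± 0.19 in rescue against knockout (edgeR adjusted p = 7e-04).

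**Figure D4:**
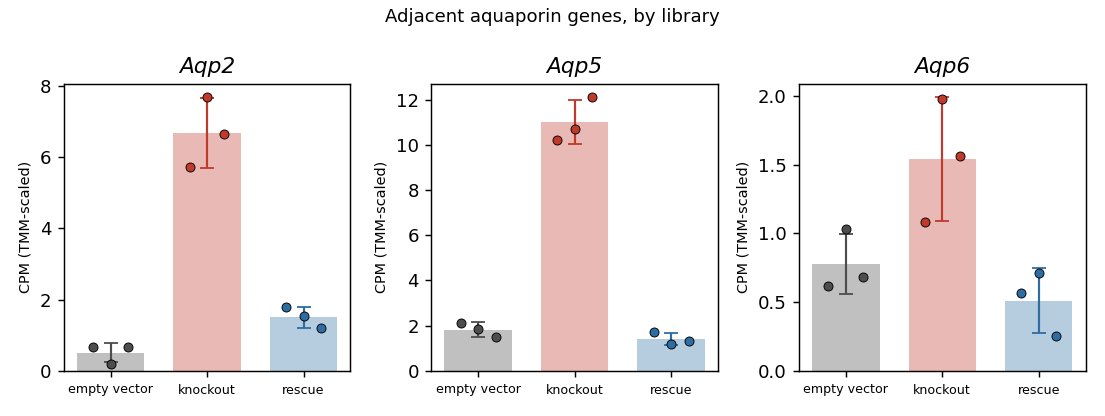
CPM (TMM-scaled) of the adjacent genes Aqp2, Aqp5 and Aqp6 by group; points are libraries, bars are means and error bars SD (n = 3). All 3 have their highest mean in knockout, and Aqp2 alone has a rescue range wholly above its empty-vector range.

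Aqp1, the water channel of the proximal tubule and thin limb, was at trace level throughout, with 10, 3 and 8 counts for empty vector, 9, 10 and 25 for knockout, and 23, 8 and 7 for rescue. Knockout libraries (0.571 to 1.05 CPM) lay above empty vector (0.193 to 0.444), and rescue libraries (0.438 to 0.819) overlapped both. Aqp1 rose in knockout (1.33 ± 0.44, edgeR adjusted p = 0.013), a call that was lost without knockout replicate 3 (1.04, edgeR adjusted p = 0.11). It did not pass in rescue against knockout (-0.49 ± 0.39, edgeR adjusted p = 0.30) or against empty vector (0.84 ± 0.45, edgeR adjusted p = 0.13).

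Anpep, the brush-border aminopeptidase N, was measurable in knockout alone. It had 3, 0 and 0 counts for empty vector, 27, 23 and 64 for knockout, and 0, 1 and 0 for rescue. The knockout libraries, at 1.71, 1.90 and 2.69 CPM, did not overlap either of the other groups. The ratio of summed counts, per scaled library total, was 46.4 between knockout and empty vector (exact Poisson interval 15.5 to 228) and 138 between knockout and rescue (24.2 to 5480). Both differences passed (edgeR adjusted p = 2.2e-07 and 1.4e-07). A group sum of 0 would allow up to 0.0476 CPM in empty vector and 0.0482 in rescue. The sums were 3 counts in empty vector (0.0476 CPM, exact Poisson interval 0.00981 to 0.139) and 1 in rescue (0.0161, interval 0.000407 to 0.0895). These values lie at or under that floor, but their intervals reach above it. The fitted change between them (-1.26 ± 1.44, edgeR adjusted p = 0.50) depends on the prior count, and no direction is read from it.

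Lrp2, which encodes the large endocytic receptor megalin, had 496, 257 and 401 counts for empty vector, 566, 367 and 632 for knockout, and 624, 343 and 352 for rescue. In CPM these were 22, 16.5 and 16.1, then 35.9, 30.3 and 26.6, then 22.2, 18.8 and 22.1. Knockout lay above both other groups, which overlapped. Lrp2 rose 1.69-fold in knockout (0.76 ± 0.13, edgeR adjusted p = 0.00016) and fell 1.46-fold in rescue against knockout (-0.55 ± 0.13, edgeR adjusted p = 0.0022). Between rescue and empty vector it did not pass (0.21 ± 0.13, edgeR adjusted p = 0.22), except without empty-vector replicate 1 (0.40, edgeR adjusted p = 0.0038).

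Cubn, whose product cubilin works with megalin, was too low for the test, with 6, 5 and 9 counts for empty vector, 7, 15 and 38 for knockout, and 7, 7 and 3 for rescue. Knockout libraries, at 0.444, 1.24 and 1.60 CPM, lay above those of empty vector (0.266 to 0.361) and rescue (0.189 to 0.383), with replicate 1 close to them. Group sums gave a ratio of 3.66 between knockout and empty vector (exact Poisson interval 2.18 to 6.42) and of 4.26 between knockout and rescue (2.45 to 7.78). Cubn entered the fit in 8 of 16 alternatives, without a filter or through its knockout libraries, so its calls there support nothing beyond these counts. The noncoding gene Gm13270 overlaps Cubn on the other strand with at most 10 counts in a library. No source used here states whether reads were counted by strand, so some Cubn counts may come from it.

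Other genes of the endocytic apparatus were measured more deeply than Cubn. Of 13 partners of megalin and cubilin, 11 were tested. In knockout 8 rose and 2 fell, against 29.5% and 31.1% of all genes tested and 60.6% called in either direction. The median log2 change was 0.29 beside -0.021 over all genes tested. Clcn5, an endosomal chloride-proton exchanger, stood at 204 CPM for empty vector, 383 for knockout and 198 for rescue (0.91 ± 0.09 in knockout, -0.95 ± 0.09 in rescue against knockout; edgeR adjusted p = 1.3e-07 and 9.5e-08). Fcgrt, the neonatal Fc receptor that recycles albumin and IgG, rose in knockout (1.26 ± 0.12, edgeR adjusted p = 4.6e-07). Lrpap1, the chaperone of megalin, fell in rescue against knockout (-0.53 ± 0.06, edgeR adjusted p = 4.1e-07). There 6 of the 11 fell and 3 rose, against 27.3% and 29.5% of all genes tested. The small GTPase gene Rab5a went the other way and fell in knockout (-0.48 ± 0.06, edgeR adjusted p = 1.4e-06). Amn, the membrane anchor of cubilin, and Dab2, an adaptor of megalin, had at most 3 and 6 counts in any library. With library totals alone as the scale, 5 of the 11 were higher in knockout.

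Megalin belongs to a family of lipoprotein receptors, and 8 of its relatives were listed. Of 7 tested, 4 rose in knockout and none fell (median 1.06), against 29.5% and 31.1% of all genes tested and 60.6% called in either direction. All 7 fell in rescue against knockout (median -0.72 beside 0.033 over all genes), against 27.3% of all genes tested. Lrp1 went from 74.2 CPM in empty vector to 285 in knockout and 96.5 in rescue (1.95 ± 0.11 in knockout, edgeR adjusted p = 1.5e-08). Vldlr and Lrp5 rose by 1.27 ± 0.08 and 1.06 ± 0.08. The log2 change of Lrp2 itself in knockout (0.76) was smaller than those of the 4 relatives that rose. It was larger than those of Lrp4 (-0.18 ± 0.32), Lrp6 (0.14 ± 0.09) and Lrp8 (-0.02 ± 0.07), which did not pass. These differences were not tested.

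Of 10 brush-border enzyme genes other than Anpep, most of them peptidase genes, 3 had enough counts. Among these 3, Mme and Enpep were lowest in knockout. Both were called lower in knockout and higher in rescue against knockout, against 31.1% and 29.5% of all genes tested. Mme, neprilysin, was at 541 ± 79.1 CPM for empty vector, 260 ± 13.2 for knockout and 556 ± 24.3 for rescue (SD, n = 3); it fell in knockout (-1.06 ± 0.09, edgeR adjusted p = 4.9e-09) and rose in rescue against knockout (1.10 ± 0.09, edgeR adjusted p = 3.3e-09). Enpep, aminopeptidase A, fell by 0.58 in knockout (edgeR adjusted p = 2.5e-07) and rose by 0.35 ± 0.07 in rescue against knockout (edgeR adjusted p = 0.00013). Ggt1 did not pass in either comparison with knockout (edgeR adjusted p = 0.058 and 0.084) and was lower in rescue than in empty vector (-0.38 ± 0.09, edgeR adjusted p = 0.0012). Dpp4 and Mep1a had no count in any library.

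Most genes listed for transport and metabolism in the mature proximal tubule were not detected above a few counts. Of 20 such genes, 16 had under 10 counts in every library, among them the phosphate transporter gene Slc34a1 with at most 1, the glucose transporter gene Slc5a2 with at most 3 and the organic anion transporter gene Slc22a6 with none. Of the 4 tested, 3 rose in knockout, against 29.5% of all genes tested. Slc6a19, a neutral amino acid transporter, went from 2.31 to 6.60 CPM (1.52 ± 0.17, edgeR adjusted p = 2.9e-07), and Slc7a7 and the scaffold gene Slc9a3r1 rose by 0.47 ± 0.07 and 0.27 ± 0.06.

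Many markers of later segments were sparse too, and the measured ones had no common order. Umod, the defining gene of the thick ascending limb, had no count in any library, and Slc12a1 and Slc12a3, the cotransporters of loop and distal tubule, had at most 2 and 3. Of the other principal-cell genes, Aqp3, Aqp4, Avpr2, Scnn1b and Scnn1g, which work with Aqp2 in the collecting duct, had at most 2 counts. Scnn1a, a sodium channel subunit, stood at 1.56 ± 0.33 CPM for empty vector, 3.46 ± 0.585 for knockout and 2.88 ± 0.537 for rescue (1.14 ± 0.23 in knockout, edgeR adjusted p = 0.00027; 0.88 ± 0.23 in rescue against empty vector, edgeR adjusted p = 0.0038). Hsd11b2, which protects the mineralocorticoid receptor from glucocorticoids, was highest in rescue, at 38.1 CPM against 30.1 in knockout and 18.6 in empty vector (1.03 ± 0.22 in rescue against empty vector, edgeR adjusted p = 0.0059). Gata3 rose in knockout (0.46 ± 0.09) and Tfcp2l1 fell (-0.18 ± 0.06). Egf, made in the thick ascending limb and distal tubule, fell in knockout (-0.99 ± 0.29, edgeR adjusted p = 0.0068) and again in rescue against knockout (-1.41 ± 0.37, edgeR adjusted p = 0.0029). Ptger3, a prostaglandin receptor gene, was at 104, 121 and 89.7 CPM in the order empty vector, knockout, rescue, and the magnesium channel gene Trpm6 at 39.7, 57.1 and 26.1 CPM; both rose in knockout and fell in rescue against knockout. The kinase gene Wnk4, at 143, 123 and 83 CPM in that order, did not pass in knockout (-0.21 ± 0.11, edgeR adjusted p = 0.12) and fell in rescue against knockout (-0.57 ± 0.12, edgeR adjusted p = 0.0012). S100g, calbindin-D9k of the distal tubule, went from 0.278 to 5.17 CPM in knockout and to 0.171 in rescue (4.09 ± 0.32 and -4.83 ± 0.35; edgeR adjusted p = 1.8e-09 and 7.1e-10). Its means outside knockout lie under the filter's 0.574 CPM, so like Anpep it passed through the group where it is high. Slc4a1, the anion exchanger of intercalated cells and red cells, had the group order of Aqp2, at 1.53, 8.58 and 3.47 CPM (2.51 ± 0.22 in knockout, edgeR adjusted p = 8.8e-09), whereas 6 of the 7 intercalated-cell genes were too low to test.

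The list of other nephric transcription factors and tubule regulators had 28 genes, of which 13 were tested. In knockout 8 rose and 4 fell (median 0.26), against 29.5% and 31.1% of all genes tested. Pou3f3, a factor of the loop and distal tubule, rose by 0.51 ± 0.06 (edgeR adjusted p = 5.4e-07), and Sim1 by 0.56 ± 0.09 (edgeR adjusted p = 3.5e-05). Bicc1, an RNA-binding protein placed in this list for its role in tubules, was highest in rescue, at 321 CPM against 200 in empty vector (0.68 ± 0.06, edgeR adjusted p = 6.7e-08). Hnf4a, Wt1, Osr1 and Eya1 had at most 8 counts in any library. With library totals alone as the scale, 5 of the 13 were higher in knockout. Among the other Pax genes Pax5 alone was tested; it did not pass in knockout (-0.08 ± 0.09, edgeR adjusted p = 0.45) and was lower in rescue than in empty vector (-0.56 ± 0.09, edgeR adjusted p = 3.1e-05).

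Of 12 signals of nephron induction, 5 were tested, of which 3 rose and 2 fell in knockout, against 29.5% and 31.1% of all genes. Bmp7 rose from 1.25 to 6.61 CPM (2.41 ± 0.19, edgeR adjusted p = 3.1e-09) and the receptor gene Notch2 by 0.84 ± 0.08, while the Notch ligand gene Jag1 fell by 1.02. Ret, Wnt9b and Wnt4 had at most 4 counts. In the list of injury and dedifferentiation genes, 5 of 7 tested rose and 1 fell in knockout, beside the same shares of all genes. Spp1, osteopontin, went from 123 to 779 CPM and to 55.1 in rescue (2.67 ± 0.09 in knockout, edgeR adjusted p = 4e-14). Cd24a was higher than empty vector by 1.04 ± 0.06 in knockout and by 1.02 ± 0.06 in rescue. Havcr1, the kidney injury molecule KIM-1, had no count in any library.

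Over the 10 kidney lists together, 51 of 126 genes other than the members were tested. The lists include the injury and dedifferentiation genes and were chosen with earlier results of these data known, so the shares only describe them. In knockout against empty vector 33 were higher and 12 lower, 88.2% called beside 60.6% of all genes, with a median of 0.33. In rescue against knockout 8 were higher and 25 lower, 64.7% called beside 56.8%, with a median of -0.19. Scaled by library totals alone, 25 were higher and 14 lower in knockout, and 17 were higher and 19 lower in rescue against knockout. In rescue against empty vector 18 were higher and 15 lower, 64.7% called beside 47.5%.

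**Figure D5:**
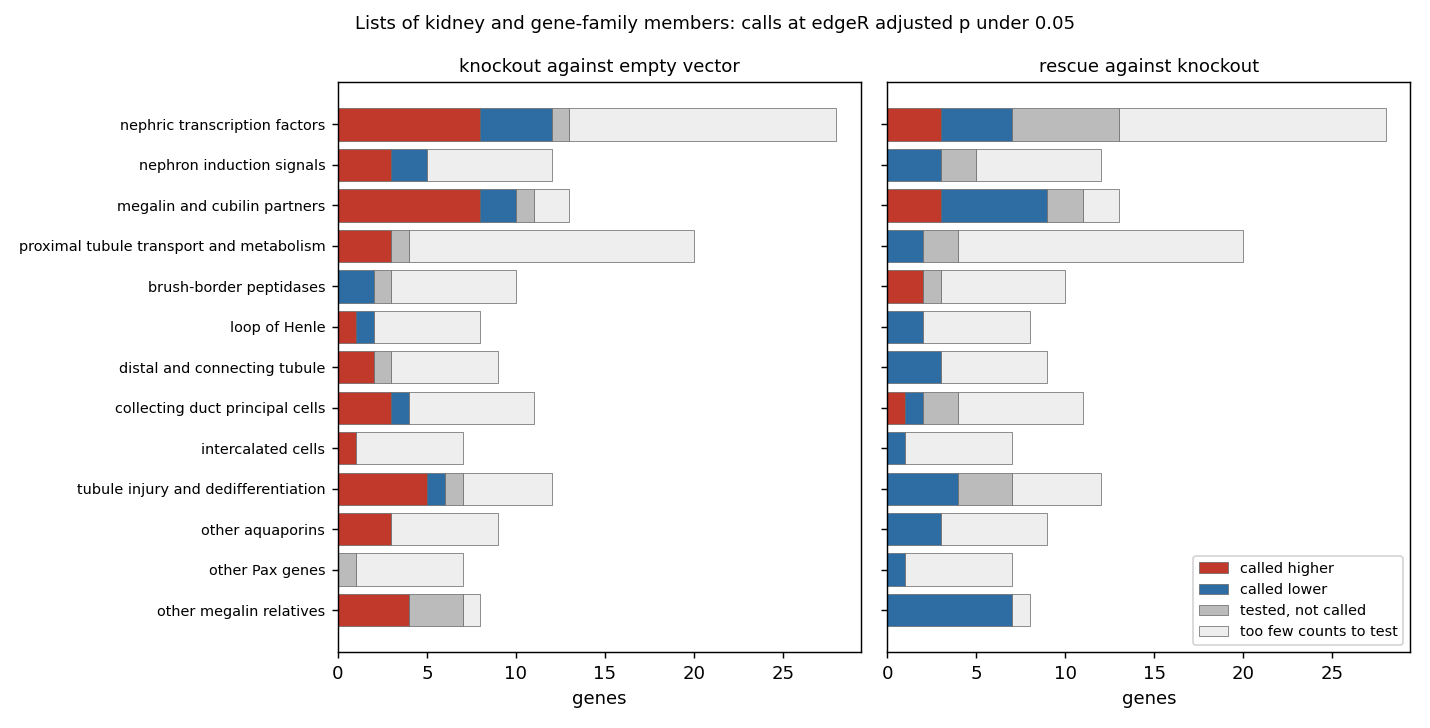
Number of genes called higher, called lower, tested without a call and not tested in each list, for knockout against empty vector and for rescue against knockout. The lists of segment genes consist mostly of genes with too few counts. The nephric transcription factors and the megalin and cubilin partners hold the most tested genes, 13 and 11.

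The tested leukocyte and fibroblast or pericyte markers rose in knockout as well, where 29.5% of all genes tested were higher and 31.1% lower. The 1 endothelial marker tested, Pecam1, was not called there (0.43 ± 0.45, edgeR adjusted p = 0.43), and podocyte markers were split. Of 10 leukocyte markers 4 were tested and all 4 rose in knockout; the summed level of the list was 211 to 228 CPM in knockout, 78.2 to 83.9 in empty vector and 38.9 to 44.4 in rescue, mostly from Cd68. Ptprc had at most 2 counts, and Cd3e, Adgre1 and Itgam had none. Of 7 fibroblast and pericyte markers 2 were tested and both rose; the list summed to 60.6 to 71.2 CPM in knockout and 26.4 to 33.6 in empty vector, with Lum at 0 and Pdgfra at no more than 3 counts. Endothelial markers summed to at most 1.97 CPM in any library, with Kdr and Emcn at 0. Of 6 podocyte markers 3 were tested, of which 1 rose and 1 fell in knockout, and the defining gene Nphs1 had at most 1 count. The part of such signals in the members' changes was not tested. In bulk RNA, fewer cells that express a gene and less RNA per cell cannot be told apart.

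Across the 9 libraries each member of at least 1 CPM was compared with 10508 protein-coding genes by Pearson's r of log2 CPM. These values describe libraries that share the 3 groups, so many genes have a high r. Pax8 was most like Lrrfip2 (r = 0.997), Zc3h6 and Tmcc3, and 538 genes had an r over 0.95 with it. Cdh16 was most like Pdzk1ip1 (r = 0.993), Insig1 and Tspan17, with 187 genes over 0.95. Aqp2 was most like Tmem37 (r = 0.993), Aspscr1 and Syt11, with 346 over 0.95, and Lrp2 was most like Tex2 (r = 0.989), Eif4g1 and Cenpb, with 29. Pax2 had 5 genes over 0.95. The closest were Nrg4 (r = 0.979), Emx2 (r = 0.971), itself a transcription factor of the nephric duct, and Ralgds (r = 0.955).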

How the data were processed

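Total RNA of 9 RENCA libraries was extracted with TRIzol, messenger RNA was captured on poly-T beads and primed with random hexamers, per the labels' protocols, which describe both stranded and unstranded preparation. The submitters' processing notes list HISAT2, HISAT, TopHat2 and CASAVA beside the build mm10, and no source used here names the read counter. Raw counts per gene and FPKM values were deposited by the authors in 1 table, per the file headers. FPKM was used only to compare levels between genes and was not tested.

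Counts were tested with edgeR 4.0.16 (R 4.3.3): filterByExpr by group kept 13326 of 54532 genes, TMM factors scaled the libraries, and the 9 libraries entered 1 robust quasi-likelihood fit with a mean for each group. Benjamini-Hochberg adjustment ran over the 13326 genes, and genes with an adjusted p under 0.05 were called. The test was tried on simulated data first. Each SE was derived from the log2 change and its F statistic. CPM uses TMM-scaled totals. Intervals of summed counts are exact Poisson intervals at 95%. Every replicate pair differed beyond counting noise (chi-square over its degrees of freedom, 3.53 to 19.49).

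The members and lists were chosen with earlier results of these data known. The text names all members, from each list up to 3 called genes per comparison with the smallest adjusted p and at least 1 CPM in the higher group (or up to 2 with the highest level where none was called), and for members of at least 1 CPM the 3 named protein-coding genes most correlated over the libraries. It also names, by value, list genes near 0 and neighbours on the chromosome. Some list genes are counted but not reported here by name. Alternatives were another scaling, DESeq2 1.42.0, 2 other low-count filters, the 6 compared libraries alone, a replicate block and leaving out each library.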

Additional observations from a re-analysis of the deposited data

How the results depend on the processing

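The calls of Pax8, Aqp2, Anpep, Lhx1 and Lrp2 in both comparisons with knockout kept their direction and threshold in every alternative that tested them; Lhx1 was not tested in 1 setting, the 6 libraries of knockout and empty vector alone, so 1 member was lower there in place of 2. Over the 8 tested members, 356 of 378 alternative values kept direction and side of the threshold. Pax2 lost its call in 4 alternatives for knockout and in 9 for rescue, both against empty vector. Of 6 sign changes, 3 were Pax2 in rescue against knockout (0.17 with an edgeR adjusted p of 0.041 on library totals, 0.02 without a filter, and -0.02 to 0.00 when 1 library was left out, the upper end without knockout replicate 3), 1 was Anpep in rescue against empty vector (-3.10 to 1.81 when 1 library was left out, the upper end without empty-vector replicate 1), and 2 were Lhx1 in that comparison (-0.20 to 0.40 when 1 library was left out, with -0.20 without empty-vector replicate 2 and -0.05 without rescue replicate 3); the cause was not tested. Library totals alone moved the median of all genes to -0.17 in knockout against empty vector and 0.22 in rescue against knockout, the share of calls that were higher from 48.7% to 34.4% and from 51.9% to 69.6%, the genes higher in rescue against knockout from 3928 to 5916, and the kidney list genes higher there from 8 to 17. Leaving out 1 library gave 4 to 7 members higher in knockout; the 7 include Cubn, which then entered the fit, and the 4 came without knockout replicate 3. Lists with few tested genes moved more: 1 loop of Henle gene was higher in knockout, and 0 were in several alternatives. The replicate numbers did not pair the libraries (r of -0.16 to 0.05 between same-numbered libraries; 0 of 9 correlated best with their own number). The replicate block left 6 members higher and 2 lower in knockout and ended 1 member call, Pax2 in rescue against empty vector (0.15, edgeR adjusted p = 0.07), where 2 members were higher in place of 3. In knockout against empty vector 3852 and 4038 genes were called in place of 3935 and 4143. Depth limits Anpep outside knockout, Aqp2 in empty vector, and Lhx1, Aqp1 and Cubn in every group, with Lhx1 lowest in knockout.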

Other observations

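The protein-coding neighbours within 100 kb of the members did not all move with them. They were looked up after the members' values were seen. Beside Cdh16, which rose in knockout, Pdp2 rose (1.16, edgeR adjusted p = 3.5e-11) and Rrad rose (0.57, edgeR adjusted p = 1.6e-05), while Nae1 fell (-0.81, edgeR adjusted p = 5.5e-09). Beside Cubn, Vim rose (0.93, edgeR adjusted p = 1.7e-09) and Trdmt1 fell (-1.04, edgeR adjusted p = 4.1e-07). Beside Lhx1, which fell, Aatf fell as well (-0.53, edgeR adjusted p = 1e-05). Beside Pax8, which fell, Il1rn rose (0.51, edgeR adjusted p = 0.011) and Psd4 did not pass (0.12, edgeR adjusted p = 0.18).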
